A study of Canis lupus familiaris with 8 samples.

Results

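The leukocyte integrins described here are 9 genes: ITGAL, ITGB2, ITGA4, ITGB1, ITGB7, ITGAE, ITGA5, ITGA6 and ITGAV. They were chosen by gene symbol, as subunits carried by white blood cells, with earlier results of these data known. All 9 were found, each in a single row, among the 35048 rows of the count tables, and all 9 passed the filter on low counts that left 20632 genes. RNA came from peripheral blood mononuclear cells (PBMCs), the fraction of blood that holds lymphocytes and monocytes. The obese group was made up of 5 dogs. Number 1 was a Dachshund, number 2 a Chihuahua, numbers 3 and 4 were Labrador retrievers, and number 5 was a Welsh Corgi. The normal group was made up of 3 Beagles. Body condition and breed cannot be told apart, since no obese dog was a Beagle, and the labels give neither age nor diet. The study asked how gene expression in these cells differs with body condition. Libraries held 10264202 to 14910982 counts. By summed markers of other cells, obese dog 1 stood apart by the highest platelet level and obese dog 3 by the highest erythroid level. Obese dog 3 also had the highest neutrophil sum among the obese dogs, although PBMC preparations are meant to leave red cells and neutrophils behind.

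Integrins are adhesion receptors built from 1 alpha and 1 beta chain, and neither chain reaches the cell surface without a partner. On resting leukocytes they are held in a bent, low-affinity shape, and signals from chemokine or antigen receptors drive talin and kindlin onto the beta tail, which opens the receptor so that the cell can stop on a vessel wall. The beta2 chain, encoded by ITGB2, pairs with the alphaL chain of ITGAL to form LFA-1, the receptor for ICAM proteins that serves arrest and the immune synapse. The alpha4 chain of ITGA4 pairs with the beta1 chain of ITGB1 to bind VCAM-1 and fibronectin, or with the beta7 chain of ITGB7 to bind MAdCAM-1 on vessels of the gut. The beta7 chain also joins the alphaE chain of ITGAE (CD103), which binds E-cadherin on epithelia. The alpha5 chain of ITGA5 binds fibronectin and the alpha6 chain of ITGA6 binds laminins, each mostly with beta1 on these cells, while the alphaV chain of ITGAV binds vitronectin and latent TGF-beta with several beta chains.

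All 5 obese dogs had more ITGA6 and more ITGAV transcript than any of the 3 normal dogs, at 3.34 and 2.27 times the normal level in the fitted model, and neither passed the adjusted threshold over all genes. The other 7 genes had overlapping groups. The quasi-likelihood test of edgeR called 0 of the 9 at an adjusted p under 0.05, where 0.233% of all genes tested were called (0.0485% as higher), and 2 of the 9 had an unadjusted p under 0.05, where 15.7% of all genes did. DESeq2 and limma-voom with quality weights each called 2 of the 9 as higher, ITGA6 and ITGAV, where they called 2.97% and 9.15% of all genes higher. Of the 9 log2 fold changes (obese minus normal) 6 were positive, against 55.3% of all genes tested, with a median of 0.38 against 0.09 over all genes tested. The median of the 9 depended on single dogs of both groups: it was 0.19 without obese dog 1, 0.18 without obese dog 3 and 0.48 without obese dog 2 or obese dog 5. Leaving out normal dog 1, 2 or 3 gave 0.20, 0.37 and 0.29. Without both obese dogs 1 and 2 it was 0.01, against 0.08 over all genes. Values here are for RNA of a mixed cell population, so fewer cells of a type and less RNA per cell cannot be told apart.

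Levels are given as CPM, the counts divided by the TMM-scaled library sizes and brought to a common total. The libraries count each transcript from a tag near its poly(A) end, so CPM values can be compared between genes with little dependence on transcript length. ITGB1 had the highest mean level over the 8 dogs, 304 ± 209 CPM (SD, n = 8), followed by ITGA4 with 249 ± 53.0 CPM. That order rests on the mean: ITGB1 exceeded ITGA4 in 2 of the 8 dogs only, obese dogs 1 and 2. ITGB2 came next with 191 ± 60.0 CPM and ITGA6 with 146 ± 126 CPM, and ITGB2 was above ITGA6 in 7 of 8 dogs. ITGB7 had 72.3 ± 24.0, ITGAV 50.1 ± 25.4, ITGA5 44.6 ± 14.6 and ITGAL 31.7 ± 9.60 CPM. Neighbours in this order were often within their spread: ITGAV was above ITGA5 in 5 of 8 dogs, and ITGA6 above ITGB7 and ITGA5 above ITGAL in 6 of 8. ITGAE was the lowest in all 8 dogs, with 6.39 ± 2.85 CPM. The dogs differed most in ITGB1 and ITGA6, whose highest level was 8.39 and 8.05 times the lowest, and least in ITGA4, with 1.87 times.

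**Figure D1:**
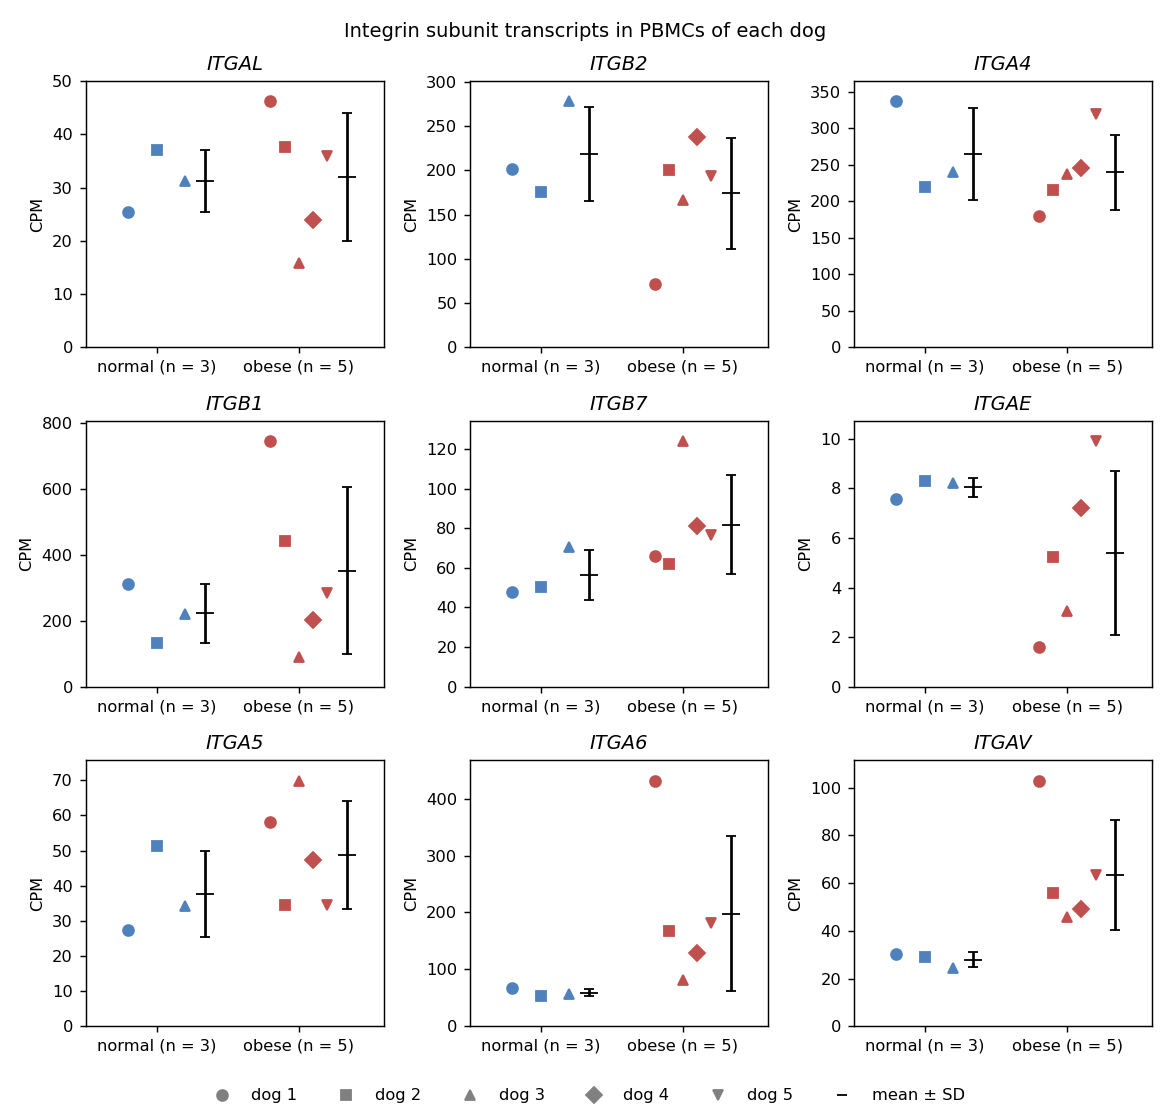
Level of each of the 9 integrin genes (vertical axes, CPM, each from 0) in the 3 normal dogs (blue) and the 5 obese dogs (red), with 1 symbol shape per dog number within a group and the mean ± SD in black. ITGA6 and ITGAV are the panels in which every red symbol lies above every blue one, and obese dog 1 has the highest ITGB1, ITGA6 and ITGAV and the lowest ITGB2 and ITGAE.

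The LFA-1 genes did not separate the groups. ITGAL had 46.2, 37.7, 15.8, 24.0 and 36.0 CPM in obese dogs 1 to 5 and 25.5, 37.1 and 31.3 CPM in normal dogs 1 to 3. The normal dogs lay inside the range of the obese dogs, with obese dog 3 the lowest of all. The log2 fold change was 0.03 ± 0.348 (standard error; edgeR adjusted p = 0.976), and its sign turned with the scaling, to −0.11 with upper-quartile factors. ITGB2, the common chain of the beta2 integrins, had 71.6, 201, 166, 238 and 194 CPM in the obese dogs, against 202, 175 and 278 CPM in the normal Beagles. Obese dog 1 stood low at 71.6 CPM (95% Poisson interval 66.1 to 77.4), and the other obese dogs overlapped the normal ones. The log2 fold change of ITGB2 was −0.33 ± 0.353 (standard error; edgeR adjusted p = 0.687), −0.13 without obese dog 1 and −0.14 without normal dog 3.

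Among the genes of gut and epithelial homing, ITGA4 was the most even of the 9. It had 180, 216, 238, 246 and 320 CPM in obese dogs 1 to 5 and 337, 219 and 240 CPM in the normal dogs. The ranges of the groups overlapped over most of their width, and the log2 fold change was −0.14 ± 0.257 (standard error; edgeR adjusted p = 0.824), turning to 0.08 without normal dog 1. Leaving out obese dog 1 gave −0.06, and leaving out normal dog 2 gave −0.29. ITGB7, the beta chain of gut homing, had 65.8, 61.7, 124, 81.3 and 76.5 CPM in the obese dogs, against 47.9, 50.5 and 70.7 CPM in the normal Beagles. Normal dog 3 overlapped obese dogs 1 and 2, and obese dog 3 was the highest. Its log2 fold change was 0.54 ± 0.286 (standard error; edgeR adjusted p = 0.392), and 0.31 without obese dog 3. ITGAE, which marks T cells lodged in epithelia and some dendritic cells, had 1.59, 5.22, 3.06, 7.19 and 9.91 CPM in the obese dogs, against 7.59, 8.30 and 8.23 CPM in the normal Beagles. The normal dogs lay close together and 4 of the 5 obese dogs were below all of them, while obese dog 5 was above. In obese dog 1 the value rests on 14 counts (1.59 CPM, 95% Poisson interval 0.868 to 2.66). The log2 fold change of ITGAE was −0.56 ± 0.524 (standard error; edgeR adjusted p = 0.635). It was −0.34 without obese dog 1 and −0.90 without obese dog 5.

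In the reference annotation (UU_Cfam_GSD_1.0) ITGA4 overlaps CERKL, a gene named for its likeness to ceramide kinase, while the strand setting was not given in the sources used here. CERKL held 17984 counts over the 8 libraries beside 27384 of ITGA4. Its level was 101, 118, 235, 176 and 208 CPM in obese dogs 1 to 5 and 208, 131 and 151 CPM in the normal dogs. CERKL was lowest where ITGA4 was lowest, in obese dog 1, while CERKL was highest in obese dog 3 and ITGA4 in normal dog 1. Whether reads were shared between the 2 genes was not tested. HASPIN overlaps ITGAE and held 40 counts beside 731. ITGB1 overlaps a pseudogene, not analysed here, and no overlap was found for ITGAL, ITGB2, ITGB7, ITGA5 and ITGAV.

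The largest log2 fold changes of the 9 genes were those of ITGA6, ITGAV and ITGB1, with ITGA5 beside them as another partner of beta1. ITGB1 had 746, 441, 88.9, 203 and 284 CPM in obese dogs 1 to 5 and 312, 134 and 222 CPM in normal dogs 1 to 3. Obese dogs 1 and 2 were above all normal dogs and obese dog 3 was below them, so the obese group spread over the whole range. The log2 fold change of 0.66 ± 0.59 (standard error; edgeR adjusted p = 0.621) became 0.19 without obese dog 1 and −0.22 without obese dogs 1 and 2, and 0.37 without normal dog 2 and 1.00 without normal dog 1. ITGA5, the fibronectin receptor chain, had 58.1, 34.4, 69.9, 47.2 and 34.4 CPM in the obese dogs, against 27.3, 51.2 and 34.2 CPM in the normal Beagles. The groups overlapped, with the highest value in obese dog 3 and the lowest in normal dog 1 (log2 fold change 0.38 ± 0.324, standard error; edgeR adjusted p = 0.608). It was 0.18 without obese dog 3, 0.20 without normal dog 1 and 0.64 without normal dog 2.

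ITGA6, the laminin receptor chain also carried by platelets and T cells, had 432, 167, 81.8, 128 and 181 CPM in obese dogs 1 to 5. The normal dogs had 66.6, 53.7 and 57.2 CPM. The groups did not overlap, which 10.9% of all genes tested showed in either direction and 5.75% with the obese dogs higher. Obese dog 3 was nearest to the normal dogs, and obese dog 1 was more than 2 times as high as any other dog. The log2 fold change was 1.74 ± 0.49 (standard error; edgeR adjusted p = 0.155). ITGAV had 103, 55.7, 45.8, 49.2 and 63.5 CPM in the obese dogs, against 30.4, 29.2 and 24.3 CPM in the normal Beagles. Here too the groups did not overlap, the 3 normal dogs lay within a narrow range and obese dog 1 was the highest. The log2 fold change of ITGAV was 1.18 ± 0.31 (standard error; edgeR adjusted p = 0.136). Obese dog 3 decided the call of these genes: without it ITGA6 rose by 1.90 (edgeR adjusted p = 0.0217) and ITGAV by 1.24 (edgeR adjusted p = 0.0285). In that fit 3.25% of all genes were called higher. Without any other single dog neither passed, with adjusted p-values from 0.161 to 0.536 for ITGA6 and from 0.166 to 0.535 for ITGAV. Without obese dog 1 the log2 fold changes of ITGA6 and ITGAV were 1.23 and 0.94. Without obese dogs 1 and 2, which had the highest platelet markers, they were 1.13 and 0.91 (adjusted p = 0.239 and 0.24, edgeR). DESeq2 called them (adjusted p = 0.017 and 0.0211), as did limma-voom with quality weights (adjusted p = 0.0061 and 0.00629).

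ITGA6 also overlaps other genes in the reference annotation, of which 1 was measured, an uncharacterised long non-coding RNA gene with 24784 counts over the 8 libraries beside 14786 of ITGA6. That gene had 538, 268, 146, 231 and 256 CPM in obese dogs 1 to 5 and 172, 158 and 147 CPM in the normal dogs. Its groups overlapped through obese dog 3, its log2 fold change was 0.86 (edgeR adjusted p = 0.311), and obese dog 1 was again the highest. Whether reads were shared between ITGA6 and this gene was not tested.

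The make-up of the integrin pool was described by the share of each gene in the summed CPM of the 9. The sum was 1704, 1220, 833, 1024 and 1199 CPM in obese dogs 1 to 5 and 1056, 758 and 966 CPM in the normal dogs, with overlapping groups. ITGA6 took 9.81 to 25.3% of it in obese dogs, against 5.92 to 7.08% in the Beagles, and ITGAV took 4.56 to 6.04% against 2.52 to 3.85%. These were the genes whose shares did not overlap. In obese dog 1, ITGB1 and ITGA6 took 43.8 and 25.3% of the pool and ITGB2 took 4.20%, where ITGB2 had 16.2 to 28.8% in the other 7 dogs. In obese dog 3, ITGB1 took 10.7% and ITGB7 took 14.9%, the lowest and the highest share of these genes among the 8 dogs.

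**Figure D2:**
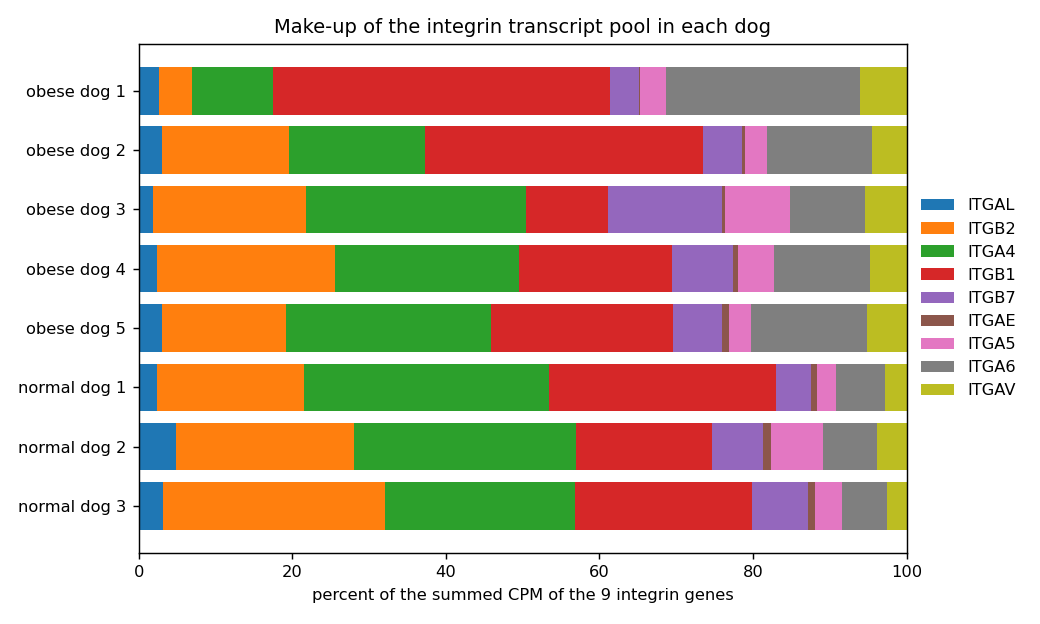
Share of each of the 9 integrin genes (horizontal axis, percent of their summed CPM) in each of the 8 dogs (rows), with 1 colour per gene. The grey segment of ITGA6 spans 9.81 to 25.3% in obese dogs, against 5.92 to 7.08% in the Beagles, and the red segment of ITGB1 runs from 10.7% in obese dog 3 to 43.8% in obese dog 1.

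Since an alpha chain needs its beta chain, 8 ratios of partner genes or of beta chains were compared within each dog, on the log2 scale with a pseudocount of 0.5 CPM. Each was tested by exact permutation (two-sided) of all 56 ways to divide the dogs into 5 and 3, which cannot give a p under 0.0179. The largest shift toward an alpha chain was in ITGA6 over ITGB1. The CPM of ITGA6 divided by that of ITGB1 was 0.579, 0.379, 0.920, 0.629 and 0.639 in obese dogs 1 to 5. In normal dogs 1 to 3 it was 0.214, 0.400 and 0.258. Obese dog 2 lay just under normal dog 2, and the other obese dogs lay above all normal dogs. Beta chains other than ITGB1 were left out of that ratio. Among them ITGB4 had 84 CPM in obese dog 3, the dog with the highest ratio, and at most 4.68 CPM in any other dog. The mean log2 ratio was −0.72 ± 0.457 (SD, n = 5) against −1.83 ± 0.465 (SD, n = 3), a difference of 1.10 (exact permutation p = 0.0357, adjusted over the 8 ratios p = 0.286). ITGAE over ITGB7 had a difference of the opposite sign, with 0.0241, 0.0846, 0.0247, 0.0885 and 0.130 in the obese and 0.159, 0.164 and 0.116 in the normal dogs. Obese dog 5 overlapped normal dog 3, and the difference of the log2 means was −1.26 (exact permutation p = 0.107, adjusted p = 0.286).

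ITGA4 over ITGB7, the pair of gut homing, was 2.74, 3.49, 1.92, 3.03 and 4.19 in the obese and 7.03, 4.34 and 3.40 in the normal dogs. Normal dog 3 fell among the obese dogs, and the difference of the log2 means was −0.65 (exact permutation p = 0.107, adjusted p = 0.286), and −0.36 without normal dog 1. ITGA4 over ITGB1 ran from 0.242 in obese dog 1 to 2.68 in obese dog 3, with 1.08, 1.63 and 1.08 in the normal dogs. ITGB7 over ITGB1, the choice of beta chain open to ITGA4, ran from 0.0882 in obese dog 1 to 1.40 in obese dog 3. Obese dog 3 was the only dog in which the level of ITGB7 exceeded that of ITGB1. ITGAL over ITGB2 was 0.645 in obese dog 1 and 0.0951 to 0.211 in the other 7 dogs. The remaining ratios, ITGA5 and ITGAV over ITGB1, also overlapped between the groups, and the 5 ratios other than ITGA6 over ITGB1, ITGAE over ITGB7 and ITGA4 over ITGB7 had exact permutation p-values of 0.214 to 0.982.

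**Figure D3:**
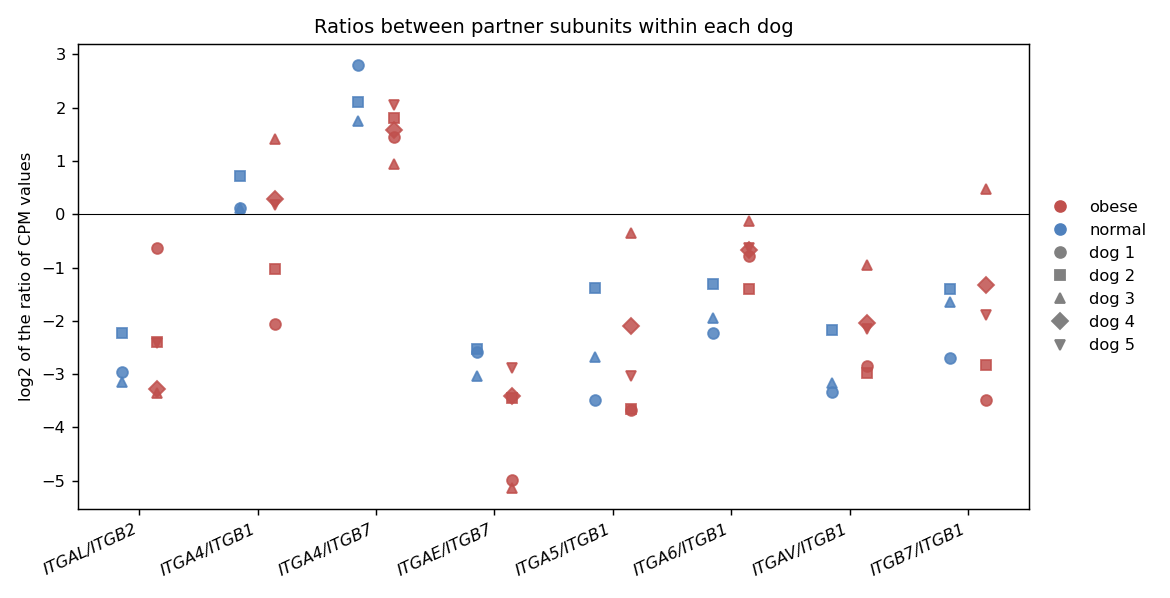
Log2 ratio of CPM values (vertical axis) for 8 pairs of integrin genes (horizontal axis) in each of the 3 normal (blue) and 5 obese (red) dogs, with 1 symbol shape per dog number. ITGA6/ITGB1 has its red symbols between −1.40 and −0.12 and its blue ones between −2.22 and −1.31, and obese dogs 1 and 3 mark both ends of the ITGA4/ITGB1 and ITGB7/ITGB1 columns.

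Markers of other cell types also differed between the dogs, and their part in the results was not tested. The platelet list had 7 of 9 genes in the tables, with GP1BB at 0 in every dog, and its summed level was 1420, 599, 67.1, 66.8 and 179 CPM in obese dogs 1 to 5 against 21.9, 9.52 and 31.5 CPM in the normal dogs. All 6 tested platelet markers had positive fold changes, 0 passed (edgeR; 6 at an unadjusted p under 0.05) and 5 were higher in obese dogs without overlap, where 5.75% of all genes tested were. PPBP, a platelet chemokine, had 25.4 to 457 CPM in the obese dogs, against 2.10 to 8.55 CPM in the normal Beagles. Obese dog 1, the highest in ITGB1, ITGA6 and ITGAV, was also the highest in platelet markers. The T cell list, with all 8 genes measured, summed to 636, 778, 239, 490 and 633 CPM in the obese dogs, against 215, 196 and 201 CPM in the normal Beagles. Obese dog 3, the lowest obese dog in ITGA6 and ITGAV, was also the lowest obese dog in T cell markers. All 8 T cell markers had positive fold changes with a median of 1.21, and 0 passed (edgeR; 6 at an unadjusted p under 0.05). Of the 8, 3 were higher in obese dogs without overlap, where 5.75% of all genes tested were. CD3G, a chain of the T cell receptor complex, was among these, with 45.6 to 115 CPM against 21.7 to 37.8 CPM. CD5 overlapped, with 32.6 to 263 CPM against 34.9 to 36.6 CPM.

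Of the other cell type lists, obese dog 3 was set apart from the other obese dogs by summed neutrophil markers and from all other dogs by summed erythroid markers. Normal dogs 2 and 3 were also high in neutrophil markers. These summed to 7070 CPM in obese dog 3 and 208 to 845 CPM in the other obese dogs, against 1690, 6900 and 4400 CPM in the normal dogs, and erythroid markers to 1160 CPM in obese dog 3 and at most 24.3 CPM in any other dog. The neutrophil markers did not all follow their sum. Among the obese dogs, S100A8 (2130 CPM) and CSF3R (423 CPM) were highest in obese dog 3. CAMP (126 CPM) and MMP8 (7.49 CPM) were highest in obese dog 1. Monocyte markers summed to 782 to 1730 CPM in the obese dogs, against 1580 to 2860 CPM in the normal Beagles. That sum was carried by VCAN, with a mean of 377 against 1470 CPM, while 5 of the 8 markers had positive and 3 negative fold changes, with a median of 0.13. CD14 had 10.1 to 32.6 against 7.19 to 28.3 CPM. Plasma cell markers summed to 132 to 249 against 302 to 1080 CPM, with 1 of 7 tested past the threshold, TNFRSF17 (edgeR adjusted p = 0.0228), and dendritic cell markers, with 6 of 7 genes in the tables, to 75.1 to 193 against 45.9 to 70.4 CPM. In the obese dogs most of the dendritic cell sum was IRF8, with a mean of 97.5 CPM beside a mean sum of 139 CPM. In the normal Beagles IRF8 had a mean of 26.9 CPM beside a mean sum of 57.4 CPM. Of the 6 tested 4 had positive and 2 negative fold changes, CD1C (−1.92) and BATF3 (−0.15), and the mean log2 CPM of the list overlapped between the groups. B cell markers (35.8 to 236 against 41.3 to 82.1 CPM) and markers of NK and cytotoxic cells (53.3 to 151 against 61.2 to 104 CPM) overlapped.

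**Figure D4:**
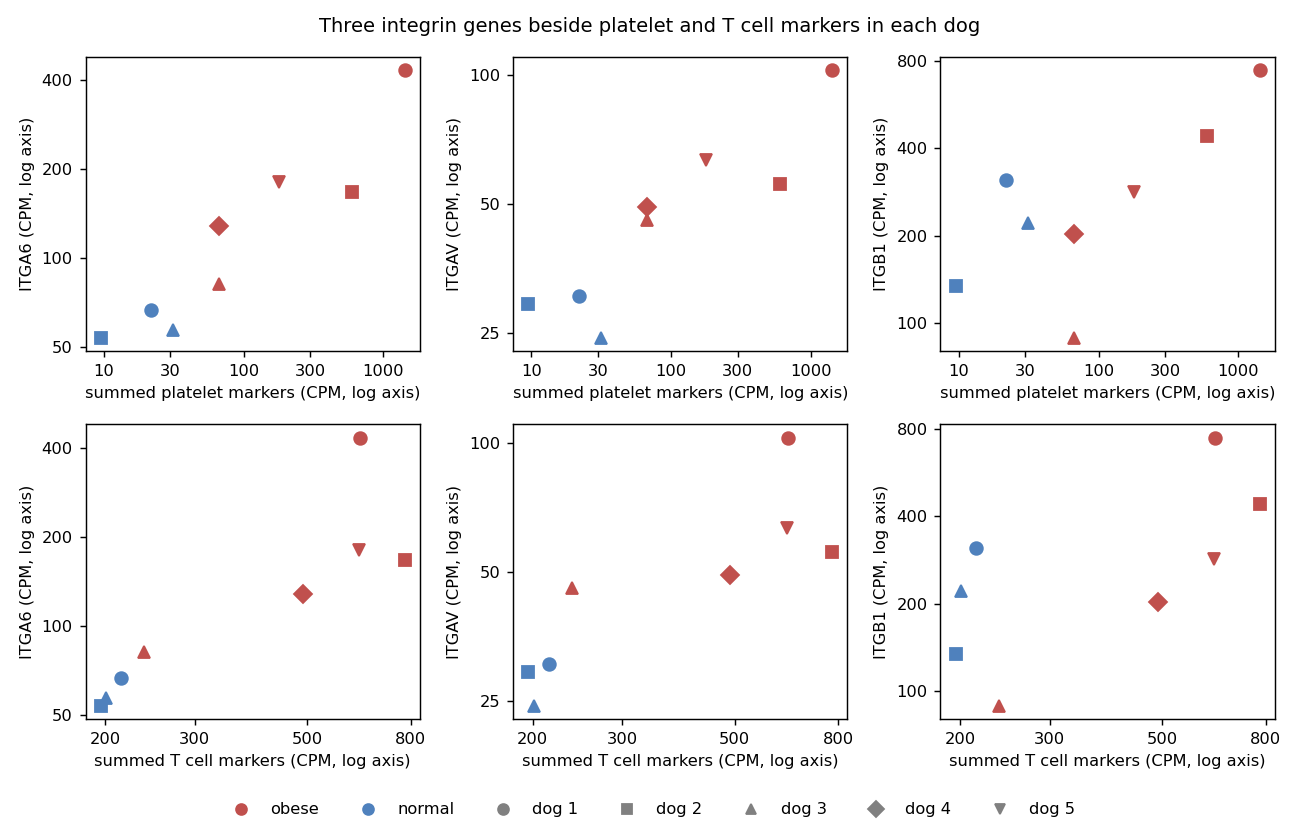
Levels of ITGA6, ITGAV and ITGB1 (vertical axes, CPM, log scale) against the summed level of platelet markers (upper row) and T cell markers (lower row; horizontal axes, CPM, log scale), with 1 symbol per dog in red for obese and blue for normal. In the ITGA6 and ITGAV panels the blue symbols sit at the lower left, with platelet sums of 9.52 to 31.5 CPM and T cell sums of 196 to 215 CPM, and obese dog 1 sits at the top; ITGB1 is as low as 88.9 CPM in obese dog 3.

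Of the remaining integrin subunits 0 of the 16 tested passed (edgeR; 7 at an unadjusted p under 0.05). Their median log2 fold change was 0.88, with 9 positive and 7 negative values. In this list 4 genes were higher without overlap in the obese dogs and 1 was lower, where 5.75 and 5.16% of all genes tested were. ITGA2B, the platelet alphaIIb chain, had 7.75 to 112 CPM in the obese dogs, against 0.996 to 4.21 CPM in the normal Beagles (log2 fold change 4.11, edgeR adjusted p = 0.154). ITGA2, a collagen receptor chain, had 10.8 to 50.4 against 2.66 to 9.44 CPM, and ITGB5, a partner of ITGAV, 5.42 to 12.1 against 3.37 to 3.65 CPM. ITGB3, the platelet beta chain and another partner of ITGAV, had 1.17 to 10.9 against 0.773 to 0.996 CPM. The further partners ITGB6 and ITGB8 overlapped between the groups. ITGB6 had 0.794 to 22 against 0.664 to 2.42 CPM, and ITGB8 had 0.525 to 3.62 against 0.984 to 2.42 CPM. ITGA9, whose chain pairs with beta1, was the gene with lower values in all obese dogs, 6.80 to 10.6 against 19.7 to 23.9 CPM (log2 fold change −1.32 ± 0.265, standard error; edgeR adjusted p = 0.0764). The myeloid partners of ITGB2 were ITGAM, with 34.8 to 151 CPM in the obese dogs, against 96.2 to 209 CPM in the normal Beagles, and ITGAX, with 14.5 to 41.1 against 33.8 to 39.5 CPM. ITGAM, ITGAX, ITGB3, ITGB4, ITGB6, ITGB8 and ITGA3 (ITGA3 with 0 to 0.836 against 0.352 to 1.55 CPM) were singled out after their values were seen.

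**Figure D5:**
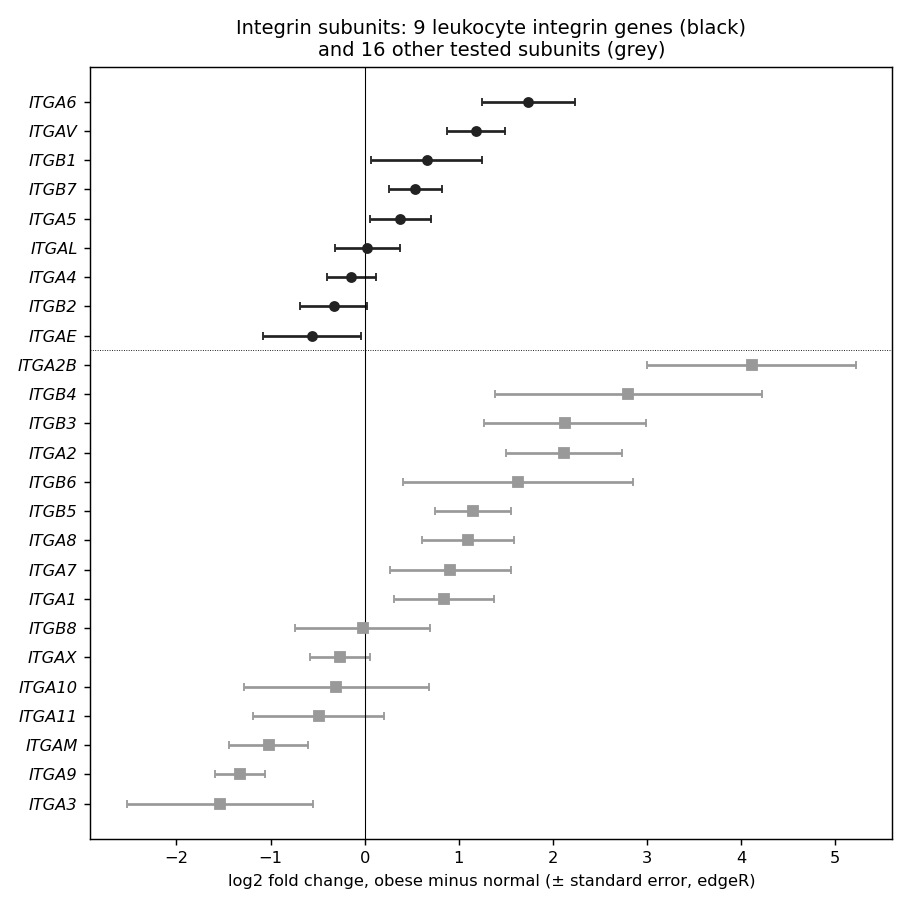
Log2 fold change, obese minus normal (horizontal axis, with standard error, edgeR), of the 9 leukocyte integrin genes (black circles) and the 16 other tested integrin subunits (grey squares). ITGA6 at 1.74 and ITGAV at 1.18 lead the black circles, and the grey squares run from −1.54 for ITGA3 to 4.11 for ITGA2B.

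Genes that switch integrins on or carry their signals are given list by list, each gene tested in the same fit over all genes. Of 15 tested activators 0 passed (edgeR; 4 at an unadjusted p under 0.05), with 7 positive and 8 negative fold changes and a median of −0.18. TLN1, which encodes the talin that binds beta tails, had 641 to 1610 CPM in the obese dogs, against 489 to 627 CPM in the normal Beagles. VCL, or vinculin, which ties talin to actin, had 38.8 to 63.6 against 74.7 to 103 CPM (log2 fold change −0.88, edgeR adjusted p = 0.147), and the small GTPase RAP1A had 187 to 316 against 374 to 443 CPM. Of the 7 inhibitors 0 passed (edgeR; 3 at an unadjusted p under 0.05), 6 had positive fold changes and the median was 0.67. Within that list 4 genes did not overlap, all with the obese dogs higher, where 5.75% of all genes tested were. FLNA, or filamin A, which competes with talin for beta tails, had 331 to 513 CPM in the obese dogs, against 166 to 212 CPM in the normal Beagles (log2 fold change 1.21 ± 0.24, standard error; edgeR adjusted p = 0.0747). The adaptor DOK2 had 36.5 to 95.2 against 21.5 to 31.1 CPM, and DOK1 had 31.3 to 66.6 against 17.5 to 29.9 CPM.

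Of 22 tested genes of integrin signalling 0 passed (edgeR; 8 at an unadjusted p under 0.05), with 9 positive and 13 negative values and a median of −0.18. The Src-family kinases differed in direction: LYN, of myeloid and B cells, had 176 to 438 CPM in the obese dogs, against 414 to 865 CPM in the normal Beagles, while LCK, of T cells, had 76.1 to 210 against 44.3 to 73.8 CPM. FYN had 230 to 596 against 160 to 251 CPM, and the adaptor CRKL had 29.6 to 47.7 against 67.5 to 75.8 CPM. Of 11 tested ligand genes 0 passed (edgeR; 3 at an unadjusted p under 0.05), with a median of 0.16. TGFB1, whose latent form is bound by alphaV integrins, had 29.1 to 57.7 CPM in the obese dogs, against 14.4 to 16.5 CPM in the normal Beagles (log2 fold change 1.32, edgeR adjusted p = 0.105). ICAM3, a leukocyte ligand of LFA-1, had 19.9 to 61.8 against 27.3 to 119 CPM. VCAM1 and MADCAM1, the vessel ligands of the alpha4 integrins, were under 1 CPM in every dog and were not tested. Of 10 other adhesion receptors 0 passed (edgeR; 2 at an unadjusted p under 0.05, CD151 and CD9), with 7 positive and 3 negative values and a median of 0.34. CD151, a tetraspanin that binds laminin-receptor integrins, had 6.80 to 130 CPM in the obese dogs, against 8.08 to 9.21 CPM in the normal Beagles (log2 fold change 2.27, edgeR adjusted p = 0.267). CD9, a tetraspanin abundant on platelets, had 24.0 to 345 against 9.18 to 40.2 CPM (log2 fold change 2.22, edgeR adjusted p = 0.316), and the groups of both genes overlapped. CD44 had 350 to 584 against 606 to 765 CPM and CD47 had 96.1 to 191 against 193 to 221 CPM. These 2 of the 10 were lower in all obese dogs, where 5.16% of all genes tested were.

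For each of the 9 genes, the genes with the most similar profile were sought among 8248 named genes (8249 for ITGAE) with at least 10 CPM on average. Similarity was the root mean square difference between centred log2 profiles over the 8 dogs, a description in which the dogs' libraries are shared. ITGA6 was nearest to MMD, at 0.26 log2 units, TLE5 at 0.27 and LAT at 0.28, where its own profile had an SD of 1.03. LAT encodes an adaptor of the T cell receptor that platelets also use. ITGAV was nearest to TMLHE at 0.15, CTDP1 at 0.17 and the T cell kinase TXK at 0.18, with an SD of 0.677. ITGB2 was nearest to RGS19, at 0.13 with an SD of 0.584, and ITGB7 to VAMP5, at 0.08 with an SD of 0.43. The nearest genes were MESD for ITGB1 (0.24, SD 0.957), CFAP20 for ITGAE (0.28, SD 0.795), MUL1 for ITGA5 (0.17, SD 0.459), ZCCHC17 for ITGAL (0.15, SD 0.481) and DCAF6 for ITGA4 (0.10, SD 0.297). None of the other 8 members was among the 3 nearest genes of any member. For ITGAE this was fixed in advance, since its mean lay under the limit of 10 CPM.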

How the data were processed

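Total RNA isolated with Trizol, 500 ng per dog, was made into Lexogen QuantSeq libraries, per the labels' protocols. The authors deposited 1 table per dog of whole-number counts per gene symbol, not normalized. Bowtie2 and bedtools are the tools named, without versions, per the submitters' processing notes. Their roles, the strand setting, the build and the gene models were not given in the sources used here. Of a repeated symbol (411 extra rows, no member among them) only the row of highest mean kept its name unmarked. A RefSeq table of the assembly UU_Cfam_GSD_1.0 held all 9 members and was used for names and for overlapping genes only.

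All libraries entered 1 model in edgeR 4.0.16 under R 4.3.3 (filterByExpr, TMM, glmQLFit and glmQLFTest with robust estimation) and adjusted by the Benjamini-Hochberg method over the 20632 genes tested, threshold 0.05. Standard errors were derived from the size of the fold change and its F statistic. The 8 ratios used an exact permutation test. The edgeR step was checked on simulated counts. Alternatives were other scalings, no filter, DESeq2 1.42.0, limma-voom (limma 3.58.1), summed rows, a replicate block and leaving out each dog. Leaving out obese dogs 1 and 2 was chosen after seeing the data.

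Groups and dog numbers come from the titles, which name each library as a separate dog, and every pair of libraries differed beyond counting noise (chi-square per degree of freedom at least 40.5). Poisson intervals cover counting error only, since no molecular identifiers were counted. The members and lists were chosen with earlier results of these data known. The genes named were the members, up to 4 genes with the smallest p of each list and the 3 nearest profiles of each member. Genes that overlap members, CD14, BATF3 and the untested GP1BB, VCAM1 and MADCAM1 were named outside this rule. Exceptions among the integrin subunits are stated where they occur, and lists were described by their summed level and counts.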

Additional observations from a re-analysis of the deposited data

How the results depend on the processing

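Over the alternatives, ITGB2, ITGB7, ITGAE, ITGA5, ITGA6 and ITGAV kept their direction in all 16 fits, and ITGB1 in 15. ITGA6 ran from 1.13 to 1.90 (adjusted p from 0.0061 to 0.536) and ITGAV from 0.91 to 1.26 (adjusted p from 0.00629 to 0.535). ITGAL, near 0, turned to −0.11 with upper-quartile factors, to −0.03 with the replicate block and to −0.31 without obese dogs 1 and 2, and ran from −0.14 to 0.17 when single dogs were left out. Without obese dogs 1 and 2, ITGA4 was 0.01 and ITGB1 was −0.22, and ITGA4 ran from −0.29 to 0.08 over single dogs. The cause was not tested. Over all genes tested the median was 0.09, and other scalings placed it between −0.03 (upper-quartile) and 0.08.

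Over all genes, edgeR called 10 higher and 38 lower. DESeq2 called 612 and 434, limma-voom with quality weights 1887 and 2055, the replicate block 0 and 0, and the fit without obese dogs 1 and 2 also 0 and 0. Leaving out single dogs gave 0 to 661 higher and 2 to 1023 lower, with the highest counts without obese dog 3. Members called higher were 2 by DESeq2 and by limma-voom and 0 to 2 over single dogs (2 without obese dog 3); no member was called lower in any of the 16 fits.

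With dogs left out, still fewer splits remain and the ratio tests could pass even less readily than with all 8 dogs, so only their differences are given. Over single dogs the log2 difference was −0.09 (without obese dog 1) to 0.64 (normal dog 2) for ITGAL/ITGB2, −0.60 (obese dog 3) to 0.53 (normal dog 2) for ITGA5/ITGB1, −0.47 (obese dog 3) to 0.52 (obese dog 1) for ITGB7/ITGB1, −0.97 (obese dog 3) to −0.10 (obese dog 1) for ITGA4/ITGB1 and 0.39 (obese dog 3) to 1.06 (normal dog 2) for ITGAV/ITGB1. Without obese dogs 1 and 2 ITGAL/ITGB2 was −0.24, ITGA4/ITGB1 was 0.31, ITGA5/ITGB1 was 0.69, ITGB7/ITGB1 was 1.00 and ITGAV/ITGB1 was 1.18. ITGA6/ITGB1 ran from 0.91 to 1.36 and ITGA4/ITGB7 from −0.89 to −0.36.

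The dog numbers do not pair the samples. With the replicate block ITGAE was −1.43, ITGB2 −0.68 and ITGA4 −0.31. Deviations of same-numbered dogs correlated at −0.0241, −0.231 and 0.00813 over genes, and 0 of 6 libraries correlated best with their own number. The counts of ITGAE, 14 in obese dog 1, limit its precision.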
